A study of Drosophila melanogaster with 9 samples.

Results

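Cytochromes P450 were followed across larval midguts of Drosophila melanogaster on 3 diets, leaving out the Cyp4d and Cyp4p subfamilies. Members were all genes with a symbol of Cyp and a digit that had a probe set of their own, and 74 of the 10844 genes with such a probe set met this rule. Of these, Cyp1 and Cyp40 are cyclophilins, which fold proteins and hold no P450 haem, so they were set apart and 72 P450 genes remained. The arrays measured 3 groups of 3 pools, each pool holding 50 midguts from larvae of the third instar of strain W1118 kept at the same temperature and light cycle. The first group, labelled 108 h old (108 to 110 h for replicate 1), then took food for 12 h that held 1% WGA (wheat germ agglutinin), a lectin that binds N-acetylglucosamine and chitin. The second group, also labelled 108 h, was starved for 12 h, and the control group was labelled normal, 12 h and 120 h old. Whole midguts were pooled, so fewer cells of a type and less RNA per cell cannot be told apart. The P450 probe sets were compared in WGA against control, in starvation against control and in WGA against starvation. The first and second of these comparisons share the 3 control arrays.

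Cytochromes P450 are haem enzymes that insert an oxygen atom into hydrophobic molecules. In insects they clear plant toxins and insecticides, and others make or break down hormones, fatty acids and cuticle lipids. Microsomal members of the CYP2, CYP3 and CYP4 clans sit in the endoplasmic reticulum and take electrons from P450 reductase and cytochrome b5, whereas members of the mitochondrial clan take them from a ferredoxin. The larval midgut, with the fat body and the Malpighian tubules, is a main site of P450 expression against food toxins, and the CYP3 clan holds most of the genes tied to insecticide resistance.

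The sum of deposited signals lay between 909028 and 1457246 on each array, and precision is limited by having 9 arrays. Signals are given below as quantile-normalised log2 values, on which a fold change is that of signal plus an offset of 1.72 and understates the change of dim genes. Levels are compared between groups within a gene and not between genes, whose probe sets differ in brightness. The 3 prime to 5 prime ratio of signals for eIF-4a, a sign of RNA integrity, was 2.75 to 3.52 on WGA arrays and 2.83 to 3.56 on starvation arrays, against 3.598 to 5.715 on control arrays. For GAPDH the ratio was 2.22 to 2.41 on WGA arrays and 2.92 to 3.35 on starvation arrays, against 1.97 to 2.92 on control arrays. That of actin was 1.17 to 1.49 and 1.44 to 1.51 on WGA and starvation arrays, overlapping the controls at 1.44 to 2.36. The part of these ratios in the results was not tested. Of the midgut enterocyte markers, 6 of 8 were on the array and tested, and their summed normalised signal was 1017.9 to 1033.0 after WGA and 1267.4 to 1588.8 after starvation, against 728.2 to 782.7 in control. Bright members carry such a sum, and the list moved in both directions. After WGA mex1 and nub rose (1.05 ± 0.18 and 1.72 ± 0.20, adjusted p = 0.000875 and 2.74e-05), Vha100-4 fell (-1.25 ± 0.18, adjusted p = 0.000175) and betaTry was at -1.06 ± 0.49 (adjusted p = 0.154). After starvation alphaTry, nub and GATAe rose (2.16 ± 0.20, 0.87 ± 0.20 and 0.90 ± 0.21). Both calls of nub were lost with its dimmest tested probe set, and that after starvation also with the deposited scaling (0.97). The call of GATAe was lost with the deposited scaling (0.96), and that of Vha100-4 after WGA with spike-in scaling (-0.75). For the Malpighian tubules, an organ that joins the gut and expresses many P450 genes, 7 of 8 markers were on the array and 4 were bright enough to test. The 7 summed to 66.5 to 77.5 after WGA and 78.0 to 144.0 after starvation, against 120.7 to 151.2 in control, so the WGA arrays lay below the controls. One of the tested markers, salt, fell after WGA by 1.49 ± 0.38 (limma, adjusted p = 0.0117), and NaPi-T, ZnT35C and List were not called. The call of salt was lost with the deposited and spike-in scaling (-0.98 and -0.92) and without WGA replicate 1. The part of these lower tubule signals in the P450 falls was not tested. Fat body markers (4 of 7 on the array, all tested) overlapped between the groups, at 208.8 to 402.0 after WGA and 217.8 to 1014.4 after starvation, against 248.3 to 329.6 in control. One of them, Lsp2, rose after starvation by 1.88 ± 0.52 (SE, adjusted p = 0.0259 by limma), a call lost without control replicate 1 or 2 or starvation replicate 2 or 3 (log2 change 1.39 to 1.78) and a change of 2.67 without starvation replicate 1. Salivary gland markers (6 of 6 on the array, 1 tested) summed to 19.9 to 60.6 after WGA and 29.5 to 45.6 after starvation, against 47.8 to 61.6 in control. The haemocyte list (5 of 6 on the array, 4 tested) was at 45.9 to 64.7, 40.9 to 59.6 and 40.3 to 69.0 in WGA, starvation and control, and the visceral muscle list (3 of 6 on the array, all tested) at 1268.1 to 2600.8, 1042.7 to 1442.7 and 1464.4 to 2001.0. After starvation the visceral muscle and salivary gland sums lay below the controls, with no tested marker of either called. Neither of the 2 oenocyte markers was bright enough to test.

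Of the 72 genes, 56 were bright enough to be tested, meaning at least 3 of 9 arrays above a log2 signal of 2.79. Arrays above this level came from all 3 groups for 49 genes, from 2 groups for 6 and from a single group for 1, Cyp310a1, which passed through the control arrays and so had to be higher there. It is among the 15 genes counted as lower after WGA below, and 14 of 55 (25.5%) were lower without it. The CYP3 clan had 35 of 37 genes tested, the CYP4 clan 10 of 23, the CYP2 clan 3 of 4 and the mitochondrial clan 8 of 8. Untested were Cyp6v1, Cyp309a2, Cyp4c3, Cyp4e1, Cyp4g1, Cyp4g15, Cyp4s3, Cyp312a1, Cyp313a1, Cyp313a2, Cyp313a3, Cyp313a4, Cyp313a5, Cyp313b1, Cyp316a1 and Cyp18a1, with log2 signals of 0.91 to 3.57. Among them, Cyp4g1 makes cuticular hydrocarbons in oenocytes and Cyp18a1 inactivates ecdysteroids. The level of such a gene could not be told from background here.

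After WGA, 10 of the 56 tested P450 genes were called higher and 15 lower, against 11.6% of all 9675 tested probe sets higher and 10.1% lower (17.9% and 26.8% of the P450 genes). After starvation 11 were called higher and 8 lower (19.6% and 14.3%), against 8.12% and 7.09% of all probe sets. Set directly against each other, WGA had 3 P450 genes called higher and 14 lower than starvation (5.36% and 25.0%), against 5.94% and 5.57% of all probe sets. The calls used limma with an adjusted p under 0.05 over all tested probe sets. The median log2 change of the P450 genes was -0.27, 0.26 and -0.37 in these comparisons, beside 0.03, 0.01 and 0.01 for all tested probe sets. Arrays of the groups did not overlap for 29, 30 and 28 of the 56 genes, beside 38.3%, 29.4% and 30.0% of all tested probe sets, and this held for each called gene other than Cyp6w1 after starvation. These medians and shares depended on the scaling. With the deposited scaling the P450 medians were 0.32, 0.19 and 0.13, so that the first and the last changed sign, beside 0.48, 0.12 and 0.35 for all tested probe sets. When scaled on spike-ins they were 0.33, 0.81 and -0.43, beside 0.55, 0.60 and -0.06. With the deposited scaling 10 P450 genes were higher and 9 lower after WGA (17.9% and 16.1%, against 21.7% and 4.7% of all probe sets), so the share of higher calls lay below that of all probe sets. The calls were then 9 and 4 after starvation (16.1% and 7.1%, against 5.5% and 4.7%) and 5 and 7 for WGA against starvation (8.9% and 12.5%, against 10.3% and 1.8%). When scaled on spike-ins, 55 P450 genes were tested, and 11 were higher and 7 lower after WGA (20% and 12.7%, against 23.1% and 4.3% of all probe sets), again with fewer higher calls than among all probe sets. The calls were then 19 and 2 after starvation (34.5% and 3.6%, against 17.9% and 2.6%) and 2 and 9 for WGA against starvation (3.6% and 16.4%, against 3.6% and 2.8%). The starvation split was 9 and 9 with median centring. The number of genes lower after starvation was 4 without control replicate 2, 5 without control replicate 3, and 5 without WGA replicate 2 or starvation replicate 1 or 2.

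**Figure D1:**
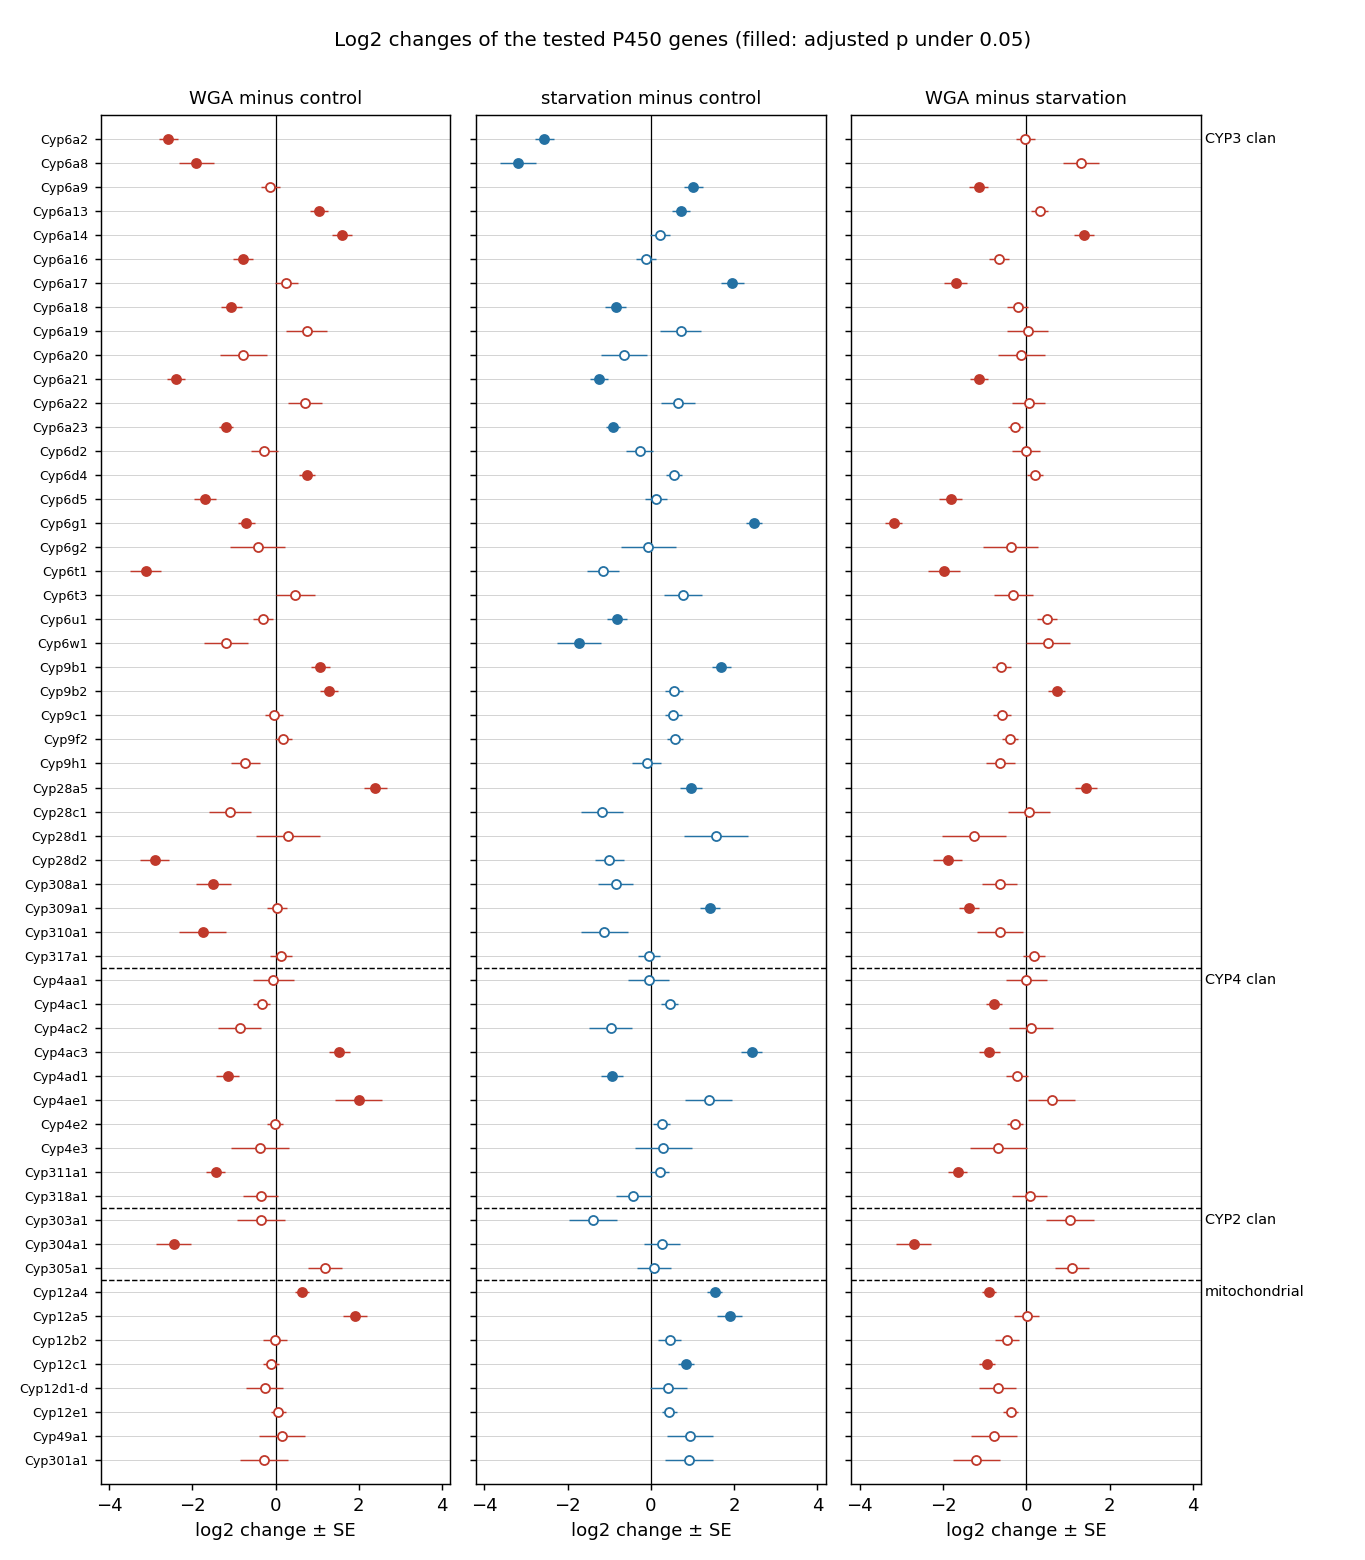
Log2 changes (x axis, ± SE of the fit) of the 56 tested P450 genes, grouped by clan, for both treatments against control and for WGA set against starvation (left to right), with n = 3 arrays per group; filled points passed an adjusted p of 0.05. The changes run from -3.12 to 2.40 after WGA, from -3.20 to 2.48 after starvation and from -3.19 to 1.43 between the treatments, and the filled points of the right panel lie mostly left of 0 (14 left, 3 right). The filled points of the left panel include Cyp310a1, which passed the filter through its control arrays alone.

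Cyp6g1, whose overexpression makes flies resistant to DDT and neonicotinoids, was the only tested member called in opposite directions by the treatments against control. Its log2 signal was 5.75, 6.07 and 6.50 on the WGA arrays and 9.22, 9.27 and 9.40 on the starvation arrays, against 6.51, 6.91 and 7.01 on the control arrays. The starvation arrays stood far above both other groups, and the WGA arrays lay just below the controls. After starvation Cyp6g1 rose by 2.48 ± 0.20 (SE, 5.60-fold, adjusted p = 2.98e-06), and WGA was below starvation by 9.11-fold (-3.19 ± 0.20, adjusted p = 2.69e-07). Both calls held in all 22 alternatives run. The fall after WGA was small, at -0.70 ± 0.20 (adjusted p = 0.0223), and shrank to -0.16 when the deposited scaling was kept and -0.09 when scaled on spike-ins. That call was lost with those scalings and with cyclic loess (-0.59), and without control replicate 2 or 3 or WGA replicate 1 or 2 (adjusted p = 0.0725 to 0.108, change -0.68 to -0.52). Its annotated neighbours Cyp6g2 and Cyp6t3, of which Cyp6t3 acts in ecdysteroid synthesis, were dim and passed no test, at -0.43 ± 0.66 and 0.48 ± 0.46 after WGA and -0.06 ± 0.66 and 0.78 ± 0.46 after starvation.

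The Cyp6a subfamily, the largest here with 13 members, all tested, went in both directions. After WGA 2 members rose and 6 fell (15.4% and 46.2%), beside 11.6% and 10.1% of all tested probe sets. After starvation 3 rose and 5 fell (23.1% and 38.5%), beside 8.12% and 7.09%. Between WGA and starvation 1 was higher and 3 lower (7.69% and 23.1%), beside 5.94% and 5.57%. Cyp6a2, an inducible enzyme linked to insecticide resistance, had log2 signals of 5.11, 5.36 and 5.88 after WGA and 5.33, 5.45 and 5.63 after starvation, against 7.69, 8.31 and 8.08 in control. The treated arrays overlapped each other and lay well below the controls. The fall was 5.98-fold after WGA (-2.58 ± 0.23, adjusted p = 2.89e-06) and 5.89-fold after starvation (-2.56 ± 0.23, adjusted p = 8.35e-06), and the difference between the treatments was -0.02 ± 0.23 (adjusted p = 0.973). Cyp6a8, which is induced by barbiturates, was at 4.90, 4.93 and 5.22 after WGA and 3.65, 4.64 and 2.84 after starvation, against 6.10, 7.69 and 6.95 in control. All treated arrays were below the controls, and the starved pools were the lowest. Their SD was 0.90, against 0.17 after WGA and 0.79 in control. Cyp6a8 fell by 3.20 ± 0.43 after starvation (9.21-fold, adjusted p = 0.000195) and by 1.90 ± 0.43 after WGA (3.72-fold, adjusted p = 0.00589), while the difference between treatments, 1.31 ± 0.43, missed the threshold (adjusted p = 0.0718). With starvation replicate 3 at 2.84, near the filter level of 2.79, the size of the starvation fall is uncertain. Cyp6a21 had 5.0, 4.89 and 5.25 after WGA and 5.79, 6.13 and 6.63 after starvation, against 7.24, 7.60 and 7.46 in control. These 3 groups were separate from one another, with falls of 2.39 ± 0.22 after WGA (adjusted p = 4.55e-06) and 1.25 ± 0.22 after starvation (adjusted p = 0.00175) and a difference of -1.14 ± 0.22 (adjusted p = 0.00384). For Cyp6a21 the call after starvation was lost with spike-in scaling (-0.84), and the difference was not called with the deposited or spike-in scaling (-0.63 and -1.03).

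Other Cyp6a members rose. Cyp6a17, which is known for its part in temperature preference in flies, had 5.57, 5.79 and 6.23 after WGA and 7.72, 7.85 and 7.12 after starvation, against 5.05, 5.88 and 5.87 in control. Starved pools alone stood apart, with a rise of 1.96 ± 0.27 (3.90-fold, adjusted p = 0.000248), and WGA was lower than starvation by 1.70 ± 0.27 (adjusted p = 0.000834). Cyp6a9 had 5.12, 5.90 and 5.91 after WGA and 6.82, 6.88 and 6.66 after starvation, against 5.50, 5.80 and 6.01 in control, again with only the starved pools apart. It rose after starvation by 1.02 ± 0.23 (adjusted p = 0.0096), and WGA was below starvation at -1.14 ± 0.23 (adjusted p = 0.00525), a call lost with the deposited and spike-in scaling (-0.57 and -0.97). Cyp6a14 showed the other pattern, with 9.91, 9.99 and 9.95 after WGA and 8.21, 8.51 and 8.95 after starvation, against 8.24, 7.85 and 8.95 in control. Here the WGA pools were tightly grouped above the rest, with a rise of 1.60 ± 0.24 (3.04-fold, adjusted p = 0.000297), and stood above starvation by 1.39 ± 0.24 (adjusted p = 0.00179). The starvation change of Cyp6a14 was 0.21 ± 0.24 (adjusted p = 0.641). Cyp6a13, next to it but for a pseudogene, rose after WGA by 1.04 ± 0.21 (adjusted p = 0.0026) and after starvation by 0.72 ± 0.21 (adjusted p = 0.0344). The starvation call of Cyp6a13 was lost without control replicate 1 or 2, WGA replicate 2 or starvation replicate 2 or 3 (adjusted p = 0.0536 to 0.125), with the deposited scaling (0.70) and with median centring (0.55).

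Of the remaining Cyp6a genes, Cyp6a23 fell by 1.18 ± 0.17 after WGA (adjusted p = 0.000177) and by 0.92 ± 0.17 after starvation (adjusted p = 0.00217), and both calls were lost with spike-in scaling (-0.68 and -0.62). Cyp6a18 fell by 1.06 ± 0.26 after WGA (adjusted p = 0.00874). It also fell by 0.85 ± 0.26 after starvation (adjusted p = 0.0396), a call lost on leaving out any array but WGA replicate 3 and starvation replicate 1 (adjusted p = 0.0511 to 0.138), with the deposited scaling (-0.76) and on spike-ins (-0.29). Cyp6a16 fell by 0.78 ± 0.24 after WGA (adjusted p = 0.0322), a call lost without control replicate 1 or 2 or WGA replicate 1 or 2 (adjusted p = 0.0637 to 0.112), with median centring (-0.72) and with the deposited and spike-in scaling (-0.24 and -0.17). Likewise the WGA call of Cyp6a18 was lost with those last scalings (-0.52 and -0.45). Cyp6a19, Cyp6a20, which affects aggression in males, and Cyp6a22 were dim and passed no test, with changes of 0.75 ± 0.49, -0.77 ± 0.56 and 0.71 ± 0.40 after WGA and 0.72 ± 0.49, -0.65 ± 0.56 and 0.65 ± 0.40 after starvation.

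Neighbouring P450 genes could differ in direction. In the RefSeq annotation of assembly Release 6, 9 of these genes follow each other with no other annotated gene between them, in the order Cyp6a22, Cyp6a17, Cyp6a23, Cyp6a19, Cyp6a9, Cyp6a20, Cyp6a21, Cyp6a8 and Cyp317a1. After starvation 2 of the 9 rose (Cyp6a17, Cyp6a9) and 3 fell (Cyp6a23, Cyp6a21, Cyp6a8), so that Cyp6a17 and Cyp6a23, direct neighbours, changed in opposite directions. After WGA 3 of the 9 fell and 0 rose, and 3 were lower after WGA than after starvation. The shares of all tested probe sets were 11.6% higher and 10.1% lower after WGA, and 8.12% and 7.09% after starvation. For WGA against starvation 5.57% were lower. Cyp317a1, at the end of the run, changed by 0.13 ± 0.26 after WGA and -0.05 ± 0.26 after starvation. Among all 72 genes, 32 lay in 11 such runs of at least 2 members, and 28 of these 32 were tested. No other run held members called in opposite directions in the same comparison. After WGA both members were called higher for the neighbours Cyp9b1 and Cyp9b2, Cyp6a14 and Cyp6a13, and Cyp12a5 and Cyp12a4.

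**Figure D2:**
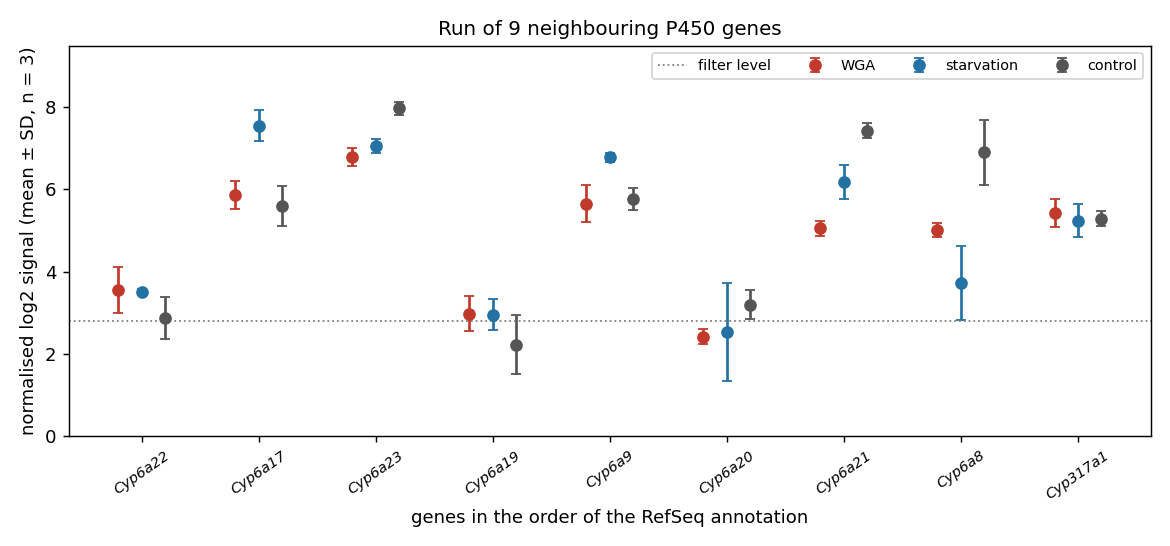
Normalised log2 signal (mean ± SD, n = 3 arrays) after WGA, after starvation and in control for 9 neighbouring P450 genes, in annotation order; the dotted line is the filter level of 2.79. Starvation lies above control for Cyp6a17 (7.56 against 5.60) and Cyp6a9 (6.79 against 5.77) and below it for Cyp6a23 (7.06 against 7.98), Cyp6a21 (6.18 against 7.43) and Cyp6a8 (3.71 against 6.91).

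The 3 Cyp6d genes differed from each other. Cyp6d5 had log2 signals of 8.36, 8.20 and 8.54 after WGA and 9.85, 10.24 and 10.46 after starvation, against 9.30, 10.26 and 10.64 in control. Only the WGA pools were low, by 1.70 ± 0.27 against control (3.25-fold, adjusted p = 0.00044) and 1.82 ± 0.27 against starvation (3.52-fold, adjusted p = 0.000495). Cyp6d4 rose after WGA by 0.76 ± 0.19 (adjusted p = 0.0115, but 0.0613 without WGA replicate 3), and its starvation change was 0.55 ± 0.19 (adjusted p = 0.0737). Cyp6d2 passed no test, at -0.27 ± 0.33 in both comparisons with control. Cyp6t1 had 1.75, 2.21 and 2.35 after WGA and 3.44, 4.56 and 4.23 after starvation, against 4.75, 5.17 and 5.76 in control. The groups were separate, with every WGA array below the filter level, so the size of its fall (-3.12 ± 0.38, adjusted p = 4.65e-05) is uncertain. WGA was also below starvation for Cyp6t1 (-1.97 ± 0.38, adjusted p = 0.00352), and the starvation change, -1.15 ± 0.38, missed the threshold (adjusted p = 0.0588). Cyp6u1 and Cyp6w1 were called lower after starvation, at -0.81 ± 0.24 (adjusted p = 0.0348) and -1.72 ± 0.53 (adjusted p = 0.0436). The call of Cyp6u1 was lost without control replicate 1 or 2, WGA replicate 2 or starvation replicate 1 or 2 (adjusted p = 0.053 to 0.108), with the deposited scaling (-0.69) and on spike-ins (-0.23). That of Cyp6w1 was lost on leaving out any array but control replicate 1 and starvation replicate 2, and its change was -1.13 without starvation replicate 1. It was also not called with the deposited scaling (-1.55) or on spike-ins (-1.09).

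In the Cyp9 family, tied to pyrethroid breakdown in other insects, 2 of 5 genes rose after WGA, 1 of 5 rose after starvation and none fell in either. Of all tested probe sets, 11.6% were higher and 10.1% lower after WGA, and 8.12% and 7.09% after starvation. Cyp9b1 had 5.08, 5.19 and 5.14 after WGA and 5.80, 5.82 and 5.59 after starvation, against 3.98, 3.77 and 4.40 in control. Both treatments lay above control without overlap, by 1.08 ± 0.23 after WGA (adjusted p = 0.00373) and 1.69 ± 0.23 after starvation (adjusted p = 0.000221), while their difference, -0.60 ± 0.23, missed the threshold (adjusted p = 0.125). Its neighbour Cyp9b2 had 11.01, 11.38 and 11.38 after WGA and 10.55, 10.73 and 10.30 after starvation, against 9.55, 9.87 and 10.46 in control. Cyp9b2 rose after WGA by 1.29 ± 0.21 (2.45-fold, adjusted p = 0.000454), and the starvation change was 0.56 ± 0.21 (adjusted p = 0.0903). A dimmer probe set of Cyp9b2 gave 0.91 ± 0.38 after WGA (adjusted p = 0.115) and 0.66 ± 0.38 after starvation. WGA stood above starvation for Cyp9b2 by 0.73 ± 0.21 (adjusted p = 0.0361), a call lost without control replicate 2, WGA replicate 2 or 3 or any of the starvation replicates (adjusted p = 0.0503 to 0.148) and on spike-ins (0.64). Cyp9c1, Cyp9f2 and Cyp9h1 passed no test, with changes of -0.04 ± 0.21, 0.19 ± 0.20 and -0.73 ± 0.35 after WGA and 0.54 ± 0.21, 0.58 ± 0.20 and -0.10 ± 0.35 after starvation. For Cyp9f2 a further, similarly bright probe set was called higher after starvation, at 0.68 ± 0.20 (adjusted p = 0.0348).

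The Cyp28 family, whose relatives in desert Drosophila respond to cactus alkaloids, held the largest WGA rise and 1 of the largest falls among the P450 genes. Cyp28a5 had 9.78, 10.18 and 9.57 after WGA and 8.30, 9.04 and 7.89 after starvation, against 7.34, 7.12 and 7.87 in control. The groups were ordered without overlap, with a WGA rise of 2.40 ± 0.27 (5.27-fold, adjusted p = 2.34e-05) and a level above starvation by 1.43 ± 0.27 (adjusted p = 0.00303). The starvation rise of Cyp28a5, 0.97 ± 0.27 (adjusted p = 0.0275), was lost without control replicate 1 or 2 or starvation replicate 2 (adjusted p = 0.088 to 0.123, change 0.65 to 0.90) and with median centring (0.71). Cyp28d2 had 3.15, 3.26 and 3.21 after WGA and 5.51, 5.63 and 4.15 after starvation, against 6.46, 5.91 and 5.93 in control. It fell after WGA by 2.90 ± 0.35 (7.45-fold, adjusted p = 4.3e-05) and was below starvation by 1.89 ± 0.35 (adjusted p = 0.00265), with WGA arrays in a narrow band near the filter level. The starvation change, -1.0 ± 0.35, missed the threshold (adjusted p = 0.0728). Its neighbour Cyp28d1 varied widely between pools, with 5.23, 1.92 and 2.54 after WGA, and passed no test (0.31 ± 0.77 after WGA, 1.57 ± 0.77 after starvation), nor did Cyp28c1 (-1.10 ± 0.50 and -1.17 ± 0.50).

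Among the small families of the CYP3 clan, Cyp309a1 had 5.49, 5.29 and 5.67 after WGA and 7.07, 7.03 and 6.46 after starvation, against 5.18, 5.27 and 5.87 in control. Only the starved pools were high, by 1.41 ± 0.24 against control (2.66-fold, adjusted p = 0.00118), and WGA was below starvation by 1.37 ± 0.24 (adjusted p = 0.00173), or 0.80 and not called with the deposited scaling. Cyp308a1 fell after WGA by 1.5 ± 0.42 (adjusted p = 0.0199). The call was lost with the deposited and spike-in scaling (-1.09 and -1.03) and without control replicate 3 or WGA replicate 2 (adjusted p = 0.0783 to 0.0882). Cyp310a1 had 1.20, 1.24 and 1.11 after WGA and 1.39, 1.42 and 2.62 after starvation, against 2.81, 2.94 and 3.03 in control. Its level after WGA was below control by 1.75 on the log2 scale. The difference was called, but its p-value is left out because the filter let the gene in through its control arrays alone.

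In the CYP4 clan, which in insects includes fatty acid hydroxylases, Cyp4ac3 was called higher by both treatments. It had 7.86, 7.51 and 8.30 after WGA and 8.48, 8.69 and 9.19 after starvation, against 6.05, 6.21 and 6.84 in control. All treated pools lay above the controls, by 2.42 ± 0.25 after starvation (5.35-fold, adjusted p = 2.76e-05) and 1.53 ± 0.25 after WGA (2.88-fold, adjusted p = 0.000579). WGA was called below starvation (-0.89 ± 0.25, adjusted p = 0.0354), but without control replicate 2, WGA replicate 1 or 2 or starvation replicate 2 or 3 the adjusted p was 0.053 to 0.172, and the change was -0.36, -0.68 and -0.76 with the deposited scaling, median centring and spike-ins, none called. Its neighbours differed from it. Cyp4ac1 changed by -0.33 ± 0.20 after WGA (adjusted p = 0.284) and 0.45 ± 0.20 after starvation (adjusted p = 0.164), with WGA called below starvation (-0.78 ± 0.20, adjusted p = 0.0215). That call was lost without WGA replicate 1 or 2 or starvation replicate 2 or 3 (adjusted p = 0.0675 to 0.0942) and with the deposited scaling, median centring and spike-in scaling (-0.26, -0.59 and -0.66). Cyp4ac2 passed no test, at -0.86 ± 0.52 after WGA and -0.97 ± 0.52 after starvation.

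Cyp311a1, which is expressed in the anterior larval midgut and affects enterocyte lipids, had 4.45, 4.99 and 4.96 after WGA and 6.29, 6.49 and 6.56 after starvation, against 6.01, 6.14 and 6.56 in control. Only the WGA pools were low, by 1.44 ± 0.22 against control (2.70-fold, adjusted p = 0.000305) and 1.65 ± 0.22 against starvation (3.13-fold, adjusted p = 0.000184), and the change against control was -0.85 and not called with spike-in scaling. Cyp4ad1 fell by 1.15 ± 0.27 after WGA (adjusted p = 0.00752) and by 0.93 ± 0.27 after starvation (adjusted p = 0.0335). The deposited and spike-in scaling ended both calls of Cyp4ad1 (-0.63 and -0.56 after WGA, -0.92 and -0.45 after starvation), and the starvation call was lost without any of the control replicates or starvation replicate 1 or 2 (adjusted p = 0.0649 to 0.106). Cyp4ae1 had 5.04, 4.69 and 4.36 after WGA and 4.93, 2.88 and 4.44 after starvation, against 1.73, 3.80 and 2.57 in control. Its WGA rise of 2.0 ± 0.56 (adjusted p = 0.0201) was lost without control replicate 1 or 3 or WGA replicate 1 or 2 (adjusted p = 0.0533 to 0.0813, change 1.52 to 1.99). With control arrays of 1.73 and 2.57 below the filter level, the size of this rise is uncertain. The remaining tested genes Cyp4aa1, Cyp4e2, Cyp4e3 and Cyp318a1 passed no test, and of these Cyp4e2 changed by -0.01 ± 0.20 after WGA and 0.26 ± 0.20 after starvation.

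Of the 3 tested CYP2 clan genes, Cyp304a1 had 1.83, 3.23 and 2.20 after WGA and 4.63, 4.89 and 5.88 after starvation, against 4.28, 5.18 and 5.14 in control. Starved and control pools overlapped, and the WGA pools lay below both, at -2.45 ± 0.43 against control (5.45-fold, adjusted p = 0.000968) and -2.71 ± 0.43 against starvation (6.56-fold, adjusted p = 0.000818). Since 2 of the 3 WGA arrays were below the filter level, the size of this fall is uncertain. Cyp305a1 (1.18 ± 0.41 after WGA, adjusted p = 0.0567) and Cyp303a1, needed for sensory bristles (-1.39 ± 0.57 after starvation, adjusted p = 0.129), missed the threshold.

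All 8 mitochondrial genes were tested, and after starvation 3 rose and 0 fell, beside 8.12% of all tested probe sets higher and 7.09% lower. The fitted changes were above 0 in each of the 8 (0.42 to 1.90, median 0.88), but 5 missed the threshold. Cyp12d1-d, Cyp49a1 and Cyp301a1, among those 5, were dim, with control means of 2.90, 2.82 and 2.04 near or below the filter level of 2.79. Cyp12a4, whose overexpression gives resistance to the insect growth regulator lufenuron, had 10.18, 9.97 and 10.07 after WGA and 10.90, 11.03 and 10.95 after starvation, against 9.07, 9.36 and 9.86 in control. Its starved pools were tightly grouped above both others, with a rise of 1.53 ± 0.17 (2.89-fold, adjusted p = 5.22e-05). The WGA change was 0.64 ± 0.17 (adjusted p = 0.0169), a call lost without control replicate 1 or 2 or WGA replicate 1 (adjusted p = 0.0568 to 0.0627) and with each other scaling (0.19 to 0.74). Cyp12a5, its neighbour, had 7.43, 7.75 and 7.75 after WGA and 7.08, 8.06 and 7.75 after starvation, against 5.03, 5.82 and 6.35 in control. The treatments overlapped and both lay above control, by 1.91 ± 0.30 after WGA (3.75-fold, adjusted p = 0.000443) and 1.90 ± 0.30 after starvation (3.73-fold, adjusted p = 0.000819), and their difference was 0.01 ± 0.30 (adjusted p = 0.991). Cyp12c1 had 5.77, 5.70 and 6.05 after WGA and 6.92, 6.82 and 6.60 after starvation, against 5.83, 6.17 and 5.84 in control. It rose only in the starved pools, by 0.84 ± 0.19 (adjusted p = 0.00796, but not called with the deposited scaling), and WGA was lower than starvation by 0.94 ± 0.19 (adjusted p = 0.00425), a difference of -0.37 with the deposited and -0.77 with spike-in scaling, neither called. The starvation changes of Cyp12b2, Cyp12d1-d, Cyp12e1, Cyp49a1 and Cyp301a1, the last needed for cuticle formation, were 0.45 ± 0.28, 0.42 ± 0.44, 0.44 ± 0.18, 0.94 ± 0.56 and 0.92 ± 0.57 and missed the threshold. After WGA the same 5 genes changed by -0.28 to 0.16. WGA stood below starvation without overlap of arrays for 6 of the 8 mitochondrial genes, 2 of them called. For no mitochondrial gene did WGA stand above starvation without overlap. Beside this, 30.0% of all tested probe sets were without overlap in either direction, and 5.57% were called lower. For Cyp49a1, which is among the 6, another tested probe set of similar brightness gave 0.19 ± 0.54 for WGA against starvation, with overlapping arrays, and 0.23 ± 0.54 after starvation. Cyp301a1, also among the 6, passed the filter through starvation and control arrays alone. Its WGA arrays were at 1.09, 1.73 and 2.46, so the filter itself favoured a low WGA level.

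**Figure D3:**
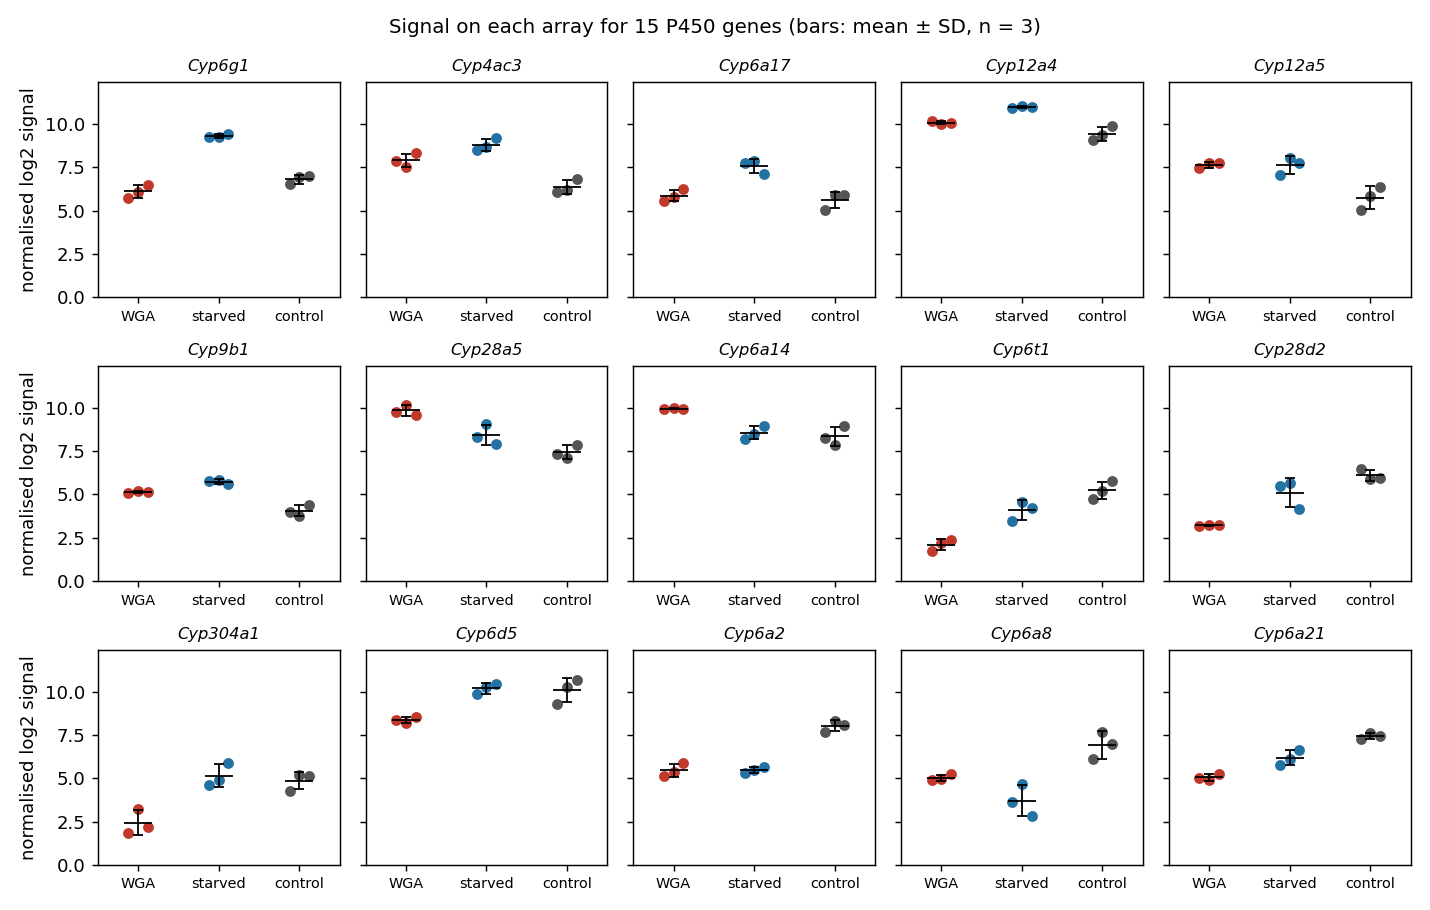
Normalised log2 signal on each of the 9 arrays for 15 P450 genes after WGA, after starvation and in control; horizontal bars give the mean and whiskers the SD (n = 3). The top row, Cyp9b1, Cyp28a5 and Cyp6a14 show rises in either or both treatments. The largest are those of Cyp6g1 after starvation (9.30 ± 0.09 against 6.81 ± 0.27 in control) and Cyp28a5 after WGA (9.84 ± 0.31 against 7.44 ± 0.38). Cyp6t1, Cyp28d2, Cyp304a1 and Cyp6d5 show WGA pools below both other groups.

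Direct comparison of WGA with starvation separated 17 P450 genes, and the 14 lower after WGA came from all 4 clans (8 of CYP3, 3 of CYP4, 1 of CYP2 and 2 mitochondrial). For Cyp6g1, Cyp6a17, Cyp6a9, Cyp309a1 and Cyp12c1 the starved pools were above control. For Cyp304a1, Cyp6d5, Cyp311a1, Cyp28d2 and Cyp6t1 the WGA pools were below control, and Cyp6a21 was below control in both. The 3 genes higher after WGA were Cyp28a5, Cyp6a14 and Cyp9b2. Cyp6g1, Cyp304a1, Cyp6t1, Cyp28d2, Cyp6d5, Cyp6a17, Cyp311a1, Cyp28a5 and Cyp6a14 kept this call in all 22 alternatives. As to the left-out subfamilies, WGA was below starvation for Cyp4d1 (-2.51 ± 0.17) and Cyp4d2 (-2.46 ± 0.23) and above it for Cyp4p1 (2.73 ± 0.18), with adjusted p = 6.74e-07, 9.74e-06 and 3.5e-07. Against control Cyp4p1 was, like Cyp6g1, called in opposite directions. It was at 2.16 ± 0.18 after WGA (limma, adjusted p = 1.31e-06) and -0.57 ± 0.18 after starvation (adjusted p = 0.0432, with overlapping arrays). The cyclophilin Cyp1 fell after starvation by 1.12 ± 0.15 (adjusted p = 0.000157), and Cyp40 passed no test.

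Some of the genes listed around P450 enzymes also differed between the groups. Of 6 genes listed as electron donors or as related to them, 4 were tested. Against control 2 rose after WGA, 1 rose after starvation and none fell in either. Beside this, 11.6% of all tested probe sets were higher and 10.1% lower after WGA, and 8.12% and 7.09% after starvation. Not measured were Cpr, the P450 reductase, and dare. Fdx2, a mitochondrial ferredoxin, had 8.22, 8.54 and 8.23 after WGA and 8.68, 9.10 and 8.75 after starvation, against 7.34, 7.33 and 7.35 in control. The control pools were nearly equal and lay below all treated pools, with a rise of 0.99 ± 0.15 after WGA (adjusted p = 0.000352) and 1.5 ± 0.15 after starvation (2.83-fold, adjusted p = 2.43e-05). Cyt-b5, which passes electrons to microsomal P450s, had 9.72, 10.02 and 9.74 after WGA and 8.93, 9.0 and 8.48 after starvation, against 9.45, 9.41 and 9.01 in control. It was higher after WGA than after starvation by 1.02 ± 0.17 (adjusted p = 0.00138). Its rise after WGA against control was 0.53 ± 0.17 (adjusted p = 0.0417), lost without control replicate 2 or 3, any WGA replicate or starvation replicate 2 (adjusted p = 0.0513 to 0.162) and 0.13 with median centring. Cyt-b5-r, named as related to cytochrome b5, was lower after WGA than after starvation (-1.33 ± 0.31, adjusted p = 0.011). Without WGA replicate 3 or starvation replicate 1 or 2 the adjusted p was 0.0513 to 0.0598. It was -0.75 with the deposited scaling and -1.15 on spike-ins, neither called. Fdx1 passed no test.

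Haem synthesis was measured by 6 of 8 listed genes, of which 2 rose and 0 fell after WGA and 0 rose and 1 fell after starvation. Over all tested probe sets, 11.6% were higher and 10.1% lower after WGA, and 8.12% and 7.09% after starvation. Alas, the first enzyme of the pathway, had 7.73, 7.79 and 7.73 after WGA and 7.43, 7.33 and 6.78 after starvation, against 6.73, 6.56 and 6.78 in control. Its WGA pools were the highest, with a rise of 1.06 ± 0.18 (2.08-fold, adjusted p = 0.000758). Urod, a later enzyme, had 6.56, 6.81 and 6.65 after WGA and 5.31, 5.50 and 5.24 after starvation, against 5.91, 5.65 and 5.54 in control. It rose after WGA by 0.97 ± 0.19 (adjusted p = 0.00187) and stood above starvation by 1.32 ± 0.19 (adjusted p = 0.000307). Pbgs fell after starvation by 0.65 ± 0.17 (adjusted p = 0.0169, but 0.0525 without starvation replicate 2), and WGA was above starvation by 0.89 ± 0.17 (adjusted p = 0.00271). The starvation change of Pbgs was not called with the deposited scaling (-0.61) or on spike-ins (-0.14).

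Among regulators of the response to foreign compounds, 7 of 8 listed genes were tested, and 2 rose after WGA, 3 rose after starvation and none fell in either. The shares of all tested probe sets were 11.6% higher and 10.1% lower after WGA, and 8.12% and 7.09% after starvation. Hr96, a nuclear receptor for foreign compounds and lipids, had 6.70, 6.64 and 6.36 after WGA and 4.29, 3.90 and 4.24 after starvation, against 4.21, 4.67 and 3.94 in control. Only the WGA pools were high, by 2.29 ± 0.25 against control (4.90-fold, adjusted p = 1.72e-05) and 2.42 ± 0.25 against starvation (5.35-fold, adjusted p = 2.2e-05). Hnf4, a nuclear receptor of fasting and fat use, had 6.18, 6.19 and 6.08 after WGA and 6.70, 6.93 and 6.68 after starvation, against 5.44, 5.72 and 5.90 in control. It rose after starvation by 1.08 ± 0.18 (adjusted p = 0.00108), and the WGA change of 0.47 ± 0.18 missed the threshold (adjusted p = 0.087). The small Maf factor maf-S, a partner of Cnc, rose by 1.15 ± 0.20 after starvation (adjusted p = 0.0015) and by 0.70 ± 0.20 after WGA (adjusted p = 0.0239), the WGA call being lost without control replicate 2 or 3 or any WGA replicate (adjusted p = 0.0602 to 0.0888). The starvation rise of tgo, a partner of bHLH-PAS factors, was 1.83 ± 0.50 (adjusted p = 0.0254) and was lost without control replicate 1 or 2 or starvation replicate 1 or 3 (adjusted p = 0.0697 to 0.0999), while it was 2.44 without control replicate 3. Neither cnc (-0.53 ± 0.31 after WGA, -0.58 ± 0.31 after starvation) nor Keap1 or foxo passed a test.

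**Figure D4:**
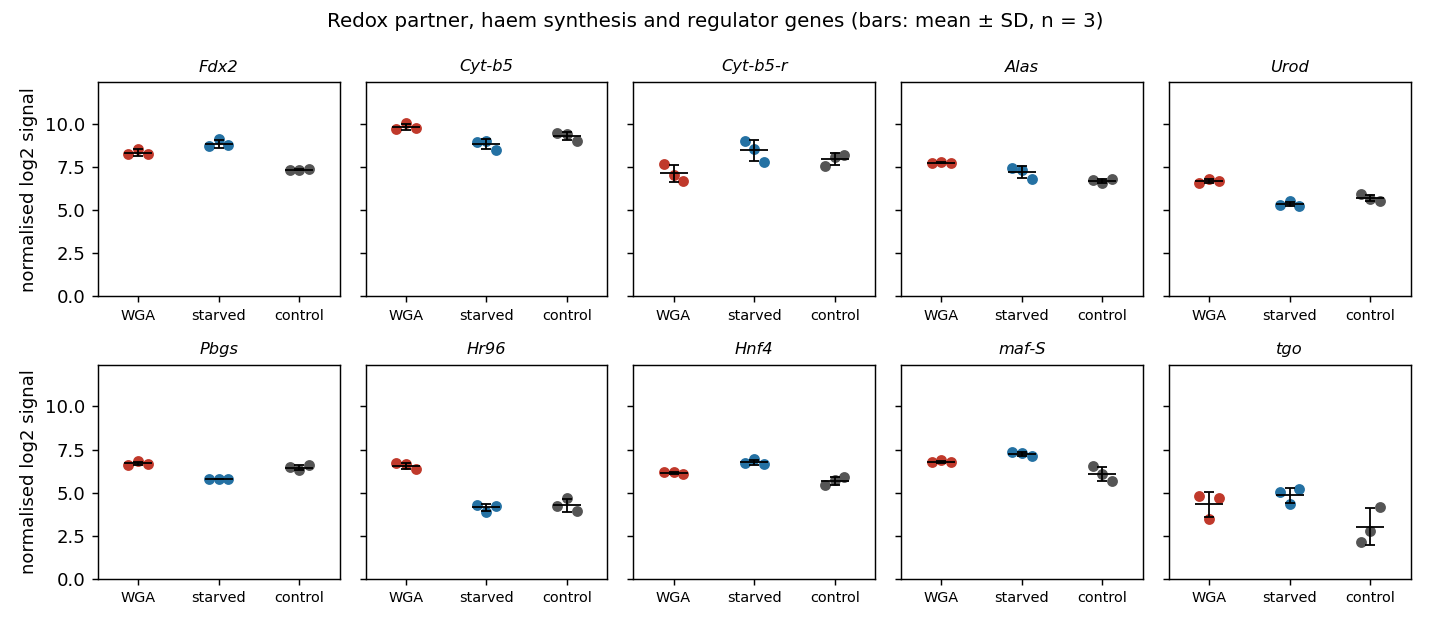
Normalised log2 signal on each of the 9 arrays after WGA, after starvation and in control, for 10 genes listed around electron transfer, haem synthesis and regulation. Bars give the mean and whiskers the SD (n = 3). Hr96 is high on the WGA arrays alone (6.56 ± 0.18 against 4.14 ± 0.22 after starvation and 4.27 ± 0.37 in control), and Fdx2 is above control in both treatments.

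P450 genes of ecdysteroid synthesis carry names of their own and were listed apart. Of the 6 listed, 3 were tested (phtm, sad and shd), and none was called against control, at -1.23 ± 0.45, -0.72 ± 0.26 and -0.37 ± 0.23 after WGA and 0.01 ± 0.45, 0.03 ± 0.26 and 0.56 ± 0.23 after starvation. At an unadjusted p under 0.05, the limma test gave 2 of the 3 after WGA and 1 after starvation, beside 32.8% and 27.4% of all tested probe sets. The mitochondrial enzyme shd, which makes 20-hydroxyecdysone in tissues such as the gut, was lower after WGA than after starvation by 0.92 ± 0.23 (adjusted p = 0.019), a call lost without WGA replicate 1 or 2 or starvation replicate 2 or 3 (adjusted p = 0.0687 to 0.087) and with the deposited scaling, median centring and spike-ins (-0.39, -0.72 and -0.79).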

How the data were processed

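Each of 9 arrays (an Affymetrix Drosophila genome array, 14010 probe sets) held biotin-labelled RNA of 1 pool of midguts. The deposited values are linear signal intensity values per probe set, made by the authors with GCOS per the submitters' processing notes (version and scaling not given in the sources used here). From these, 44 control probe sets were left out, an offset of 1.72 (the 20th percentile) was added, log2 was taken and the arrays were quantile-normalised, so a shift of all genes together cannot be seen. The 9675 probe sets above the 40th percentile (log2 signal 2.79, signal 5.18) on at least 3 arrays were fitted over all 9 arrays with limma 3.58.1 (lmFit, eBayes with trend, R 4.3.3), with Benjamini-Hochberg adjustment over all of them and a threshold of 0.05. The fit was tested on simulated data.

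A gene is given by its brightest probe set, and 12443 probe sets had 1 gene symbol, 327 several and 1196 none. The members and gene lists were chosen with earlier results of these data known. The genes described were, per comparison, the 12 with the largest called changes, the 10 brightest in control, subfamilies with at least 3 tested genes and genes called in opposite directions. The labels call the pools biological replicates and give no batch or date. Alternatives changed the scaling, offset, filter, variance model, arrays and probe set. Same-numbered arrays had residual correlations of -0.038 to 0.096 across 9 pairs, so the numbers were not taken to pair them.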

Additional observations from a re-analysis of the deposited data

How the results depend on the processing

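No alternative reversed a call among the P450 genes. For P450 genes called lower after WGA, the count of 15 became 9 with the deposited scaling and 7 when scaled on spike-ins. For those called lower after starvation, the count of 8 became 4 with the deposited scaling, 2 with spike-in scaling, 4 with no trend in the variance, 5 with only the 2 groups compared and 4 when an absolute log2 change of at least 1 was also asked. The 11 higher after starvation became 19 with spike-in scaling. Against starvation, the 3 higher after WGA became 5 with the deposited scaling and 2 when scaled on spike-ins, and the 14 lower became 7 and 9. With a replicate block, 5 P450 genes were higher and 16 lower after WGA than after starvation, 11 and 14 after WGA against control, and 13 and 10 after starvation. Leaving out each array in turn gave 8 to 11 higher and 11 to 15 lower after WGA, 9 to 13 higher and 4 to 7 lower after starvation, and 2 to 4 higher and 12 to 15 lower for WGA against starvation. Of the 61 called changes, 41 kept their call with the deposited scaling, 40 with spike-in scaling, 54 with median centring, 58 with cyclic loess, 46 with no trend and all 61 with an offset of 1 or 16. The cause was not tested, except that leaving out arrays leaves fewer samples. Genes near the filter level, such as Cyp310a1, which was not tested in 8 of the alternatives, have little signal over background. The WGA fall of Cyp310a1 is among the 61.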

Other observations

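A probe set shared by Cyp12d1-d and Cyp12d1-p, of which Cyp12d1 genes are linked to DDT resistance, was not counted among the members because it cannot be given to a single gene. Its log2 signal was 3.40, 1.79 and 3.22 after WGA and 4.82, 6.50 and 6.25 after starvation, against 2.5, 4.39 and 5.07 in control. All WGA arrays lay below all starvation arrays, and the controls overlapped both. WGA was lower than starvation by 3.06 ± 0.63 (limma, adjusted p = 0.0055). The changes against control, -1.19 ± 0.63 after WGA (adjusted p = 0.214) and 1.87 ± 0.63 after starvation (adjusted p = 0.0644), missed the threshold.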
